A study of Homo sapiens with 18 samples.

Results

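The genes described here are 10 genes of protein folding in the endoplasmic reticulum (ER) and of the unfolded protein response. They were chosen by name, with earlier results of these data known. All 10 were found among the 21944 genes in the deposited table, at each of the 3 time points. The samples were human pancreatic progenitors, differentiated from embryonic stem cells to day 19, dissociated and reseeded on the laminin isoform LN411 or on fibronectin (FN). RNA was collected 3, 6 or 24 h later, with 3 samples in each of the 6 groups and 18 samples in all. All 6 groups share the protocol of differentiation and the dissociation before reseeding. The study's text and the growth protocol name the cells as NGN3-GFP cells, a reporter line derived from SA121, while the labels' cell line entry names HUES4. The study describes the 3 samples of a group as biological replicates, and the labels do not tie samples to a differentiation batch. The only measured level used was the authors' mean normalised count of each gene, which pools all 18 samples. It holds no value for a single sample, group or time point, so it carries no error. Library depths are unknown for the same reason, and differences between LN411 and FN were not analysed here.

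The ER folds secreted and membrane proteins with chaperones that bind unfolded chains, lectins that bind their glycans and isomerases that rearrange their disulfide bonds. When unfolded proteins accumulate, sensors in the ER membrane, among them ATF6, IRE1 (encoded by *ERN1*) and PERK (encoded by *EIF2AK3*), start the unfolded protein response, which raises transcription of chaperone and degradation genes. Endocrine cells of the pancreas secrete large amounts of hormone and are known to depend on this system.

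A DNA sequence found in the promoters of 6 of the 10 genes is shown first, since it was not part of how the genes were chosen. The ER stress response element (ERSE) has the letters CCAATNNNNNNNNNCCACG, in which a CCAAT box, bound by the factor NF-Y, stands 9 bases from a site bound by ATF6 and XBP1. It was searched on both strands of RefSeq promoters, from 250 bases before to 50 bases after each annotated start site, on GRCh38.p14. All 10 genes matched a promoter, with 16 windows in total. The exact element was found in the windows of 6 of the 10 genes, namely *HSPA5*, *HSP90B1*, *CALR*, *CANX*, *PDIA6* and *XBP1*. Over all genes with a promoter in this collection, 25 of 27305 had it, or 0.0916%. Per window, it was present in 27 of 35116, or 0.0769%. The element was originally defined in promoters of ER chaperone genes, so its presence before such genes is a description and not independent evidence about them.

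The 7 exact elements of the 6 genes are given below, each read in the direction of the element, with the CCAAT box and the CCACG site in capitals. They show how far the spacer between the fixed blocks varied, from 4 to 8 G or C bases out of 9.
*HSPA5*, chr9:125241391-125241409, minus strand: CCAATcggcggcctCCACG
*HSP90B1*, chr12:103930216-103930234, plus strand: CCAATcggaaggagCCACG
*HSP90B1*, chr12:103930321-103930339, minus strand: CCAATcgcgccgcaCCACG
*CALR*, chr19:12938384-12938402, minus strand: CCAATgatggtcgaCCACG
*CANX*, chr5:179698778-179698796, plus strand: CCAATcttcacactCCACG
*PDIA6*, chr2:10812853-10812871, minus strand: CCAATgagccgcagCCACG
*XBP1*, chr22:28800603-28800621, minus strand: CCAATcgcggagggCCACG

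*HSP90B1* was the only one of the 10 genes with 2 exact elements in its window, in opposite orientations. Counted back from the start site, its elements lay at −194 to −176 and at −89 to −71. Leaving out *CANX*, described below, the elements of *XBP1*, at −52 to −34, and of *HSPA5*, at −66 to −48, were the closest to a start site. That of *CALR* was the most distant, at −225 to −207, and ran against the direction of the gene. *PDIA6* had its element at −86 to −68, in 1 of its 2 windows. *CANX* has 4 annotated start sites in this collection, and its element lay at −189 to −171 from the most downstream of them. The same element lay closer to another of these sites. It also spanned a further site, at the base after 179698786. *XBP1* had its element in 1 of 2 windows. In GENCODE v44, the elements of *HSPA5*, *CALR* and *XBP1* lie outside any annotated gene. That of *PDIA6* is in an intron of the gene, since some of its transcripts start farther upstream. Those of *HSP90B1* and *CANX* overlap exons of longer transcripts of the same gene, outside the coding sequence. The 250 bases before the start sites of the 10 genes had a G and C content of 45.6% to 74.4%, and the median over all windows was 58%.

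**Figure D1:**
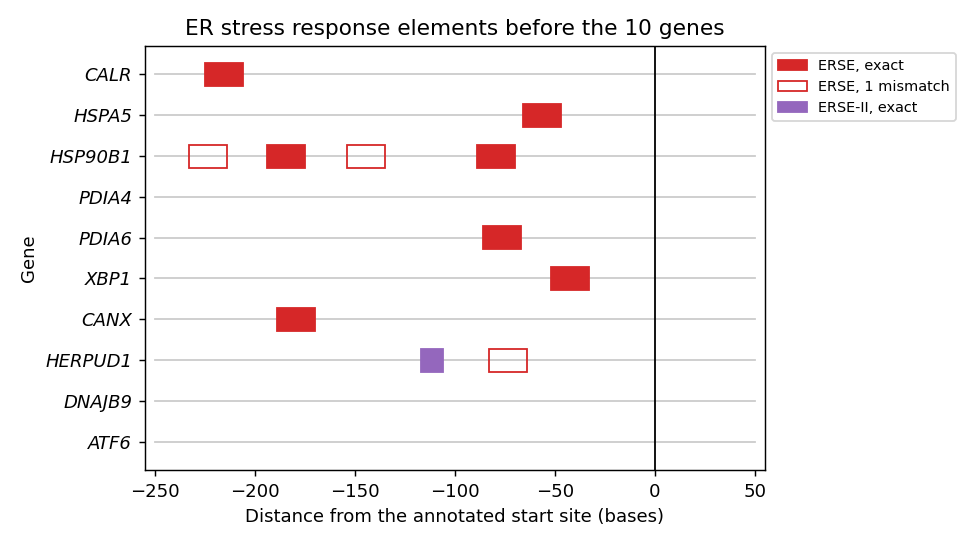
Position of ER stress response elements in the promoter windows of the 10 genes, with distance from the annotated start site in bases on the x axis and 1 gene per row, ordered by level per kb. Filled red boxes are exact ERSE matches, open red boxes have 1 mismatch, and the purple box is an exact ERSE-II. An element found in more than 1 window is drawn once, at its farthest distance before a start site. Boxes stand in the rows of 7 of the 10 genes, and the rows of *PDIA4*, *DNAJB9* and *ATF6* hold none.

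*HERPUD1* had no exact ERSE. It held a related element, ERSE-II, with the letters ATTGGNCCACG, which contains a CCAAT box read backwards and the same CCACG site. This element lay at −117 to −107, on chromosome 16 from 56932025 to 56932035, outside any annotated gene. *HERPUD1* also had an ERSE with 1 mismatch at −83 to −65. ERSE-II was found in 19 of 27305 genes, or 0.0696%, and in no other of the 10 genes. The core of the unfolded protein response element, TGACGTGG, whose last letters are the CCACG site read backwards, was present in 0 of the 10 genes and in 0.927% of all genes. The CCAAT box alone was present in 9 of the 10 genes, all but *ATF6*, and in 39.7% of all genes. These searches cover only the stated letters in these windows.

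The sequences before 3 of the genes are shown because they differ in where and how the element lies: near the start site in *HSPA5*, distant and reversed in *CALR*, and as ERSE-II in *HERPUD1*. They are RefSeq sequences on GRCh38.p14 in the direction of each gene. Each ends at the base before the GENCODE v44 gene, and the fixed blocks of the elements are in capitals. The distances above are counted from RefSeq start sites, which in *HSPA5* and *CALR* lie inside the GENCODE gene. For these genes, the distances therefore do not run from the end of the sequence shown.
*HSPA5*, chr9:125241383-125241593, minus strand, 211 bases: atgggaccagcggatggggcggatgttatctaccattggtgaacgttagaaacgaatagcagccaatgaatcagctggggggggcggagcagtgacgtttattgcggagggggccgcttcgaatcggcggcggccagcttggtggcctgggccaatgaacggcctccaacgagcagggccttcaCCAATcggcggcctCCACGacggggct
*CALR*, chr19:12938359-12938577, plus strand, 219 bases: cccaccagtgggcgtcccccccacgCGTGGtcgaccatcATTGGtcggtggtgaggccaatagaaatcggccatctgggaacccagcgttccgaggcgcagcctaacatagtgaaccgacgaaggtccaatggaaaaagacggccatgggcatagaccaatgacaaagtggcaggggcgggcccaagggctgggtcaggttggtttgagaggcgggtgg
*HERPUD1*, chr16:56931892-56932141, plus strand, 250 bases: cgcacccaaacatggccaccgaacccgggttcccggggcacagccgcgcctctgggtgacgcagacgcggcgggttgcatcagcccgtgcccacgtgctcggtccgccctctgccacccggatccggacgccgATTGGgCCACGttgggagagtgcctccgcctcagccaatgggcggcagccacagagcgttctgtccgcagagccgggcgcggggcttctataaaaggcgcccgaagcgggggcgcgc

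To place the 10 genes among all genes, the authors' mean normalised count was divided by the length of the longest annotated transcript in kb, since a longer transcript yields more reads. A length was found for 21861 genes, 15355 of them protein-coding, and the median over all 21861 was 99.6 per kb. The median over the 10 genes was 10701 per kb, and all 10 lay above the median gene. Of the 10, 7 were in the top 5% of genes, for which the limit was 2563 per kb. In the top 1% there were 5 and in the top 10% there were 9. The 10 genes held 0.835% of the summed mean normalised count of the table. Among themselves they spanned a 47.1-fold range per kb, and the 6 highest held 93.9% of their summed level per kb.

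**Figure D2:**
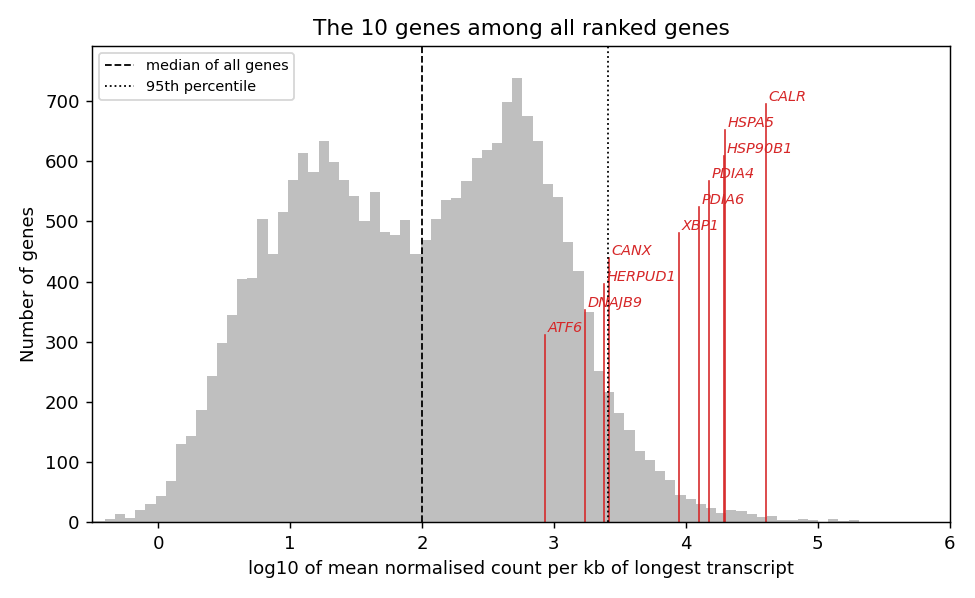
Number of genes (y axis) by log10 of the mean normalised count per kb of longest transcript (x axis) for 21861 genes, with the 10 genes as red lines of arbitrary height, the median gene as a dashed line and the 95th percentile as a dotted line. The 10 genes stand right of the median, and *CANX* and *HERPUD1* lie next to the 95th percentile.

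The abundant chaperones were at the top. *HSPA5* encodes BiP, the Hsp70 chaperone of the ER, which also holds the sensors inactive in unstressed cells. The gene (ENSG00000044574) lies on the minus strand of chromosome 9 of GRCh38 from 125234853 to 125241382, and its canonical transcript has 8 exons. The authors' mean normalised count was 106808, or 19772 per kb, higher than 99.5% of genes. *HSP90B1* encodes GRP94, the Hsp90 chaperone of the ER (ENSG00000166598, chromosome 12, plus strand, 103930107 to 103953931, 18 exons). It had the highest authors' mean normalised count of the 10, 128432, and 19433 per kb of its longest transcript. Per kb of the longest transcript the 2 genes were nearly level, but *HSPA5* over *HSP90B1* ranged from 0.590 to 1.67 over 4 definitions of length. Their order is therefore set by the length used.

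Calreticulin and calnexin bind the same glycans, the former soluble in the ER and the latter anchored in its membrane, and their genes were far apart in level. *CALR* (ENSG00000179218, chromosome 19, plus strand, 12938578 to 12944489, 9 exons) had an authors' mean normalised count of 76349. At 40162 per kb it was the highest of the 10 and number 42 of all genes. *CANX* (ENSG00000127022, chromosome 5, plus strand, 179678628 to 179731641, 15 exons) had an authors' mean normalised count of 18857, or 2625 per kb. *CALR* was 15.3-fold higher than *CANX* per kb, and between 6.08-fold and 19.9-fold higher over the 4 definitions of length. *CANX* was just inside the top 5%, with 95.1% of genes below it.

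The protein disulfide isomerases *PDIA4* and *PDIA6* were close to each other. *PDIA4* (ENSG00000155660, chromosome 7, minus strand, 149003062 to 149028662, 10 exons) had 43890 as the authors' mean normalised count and 15026 per kb. *PDIA6* (ENSG00000143870, chromosome 2, minus strand, 10783391 to 10837977, 13 exons) had 33680 and 12558 per kb. Over the 4 lengths, *PDIA4* stood at 0.924 to 1.62 times *PDIA6*, so that neither was higher throughout.

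The co-chaperone and the degradation gene were lower. *DNAJB9* encodes ERdj4, a J-domain protein that stimulates BiP (ENSG00000128590, chromosome 7, plus strand, 108569867 to 108574850, 3 exons). Its authors' mean normalised count of 4151 was the lowest of the 10, and its level of 1723 per kb was above 92.0% of genes. *HSPA5* was 11.5-fold higher per kb than *DNAJB9*, with a range of 8.77 to 15.8 over the 4 lengths. *HERPUD1* encodes a membrane protein of ER-associated degradation, which returns misfolded proteins to the cytosol (ENSG00000051108, chromosome 16, plus strand, 56932142 to 56944864, 8 exons). It had an authors' mean normalised count of 6806, and with 2386 per kb and 94.6% of genes below, it was just outside the top 5%. Its paralog *HERPUD2*, picked for this comparison with its values known, was lower, with *HERPUD1* at 2.52 to 3.81 times its level per kb.

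The transcription factors of the response also differed from each other. *XBP1* encodes a factor whose mRNA is spliced by IRE1 during ER stress (ENSG00000100219, chromosome 22, minus strand, 28794555 to 28800597, 6 exons). Its authors' mean normalised count was 19218, or 8844 per kb, above 98.9% of genes. A count per gene does not separate the spliced from the unspliced form. *ATF6* encodes a membrane-bound factor that is cut in the Golgi to release its active part (ENSG00000118217, chromosome 1, plus strand, 161766298 to 161977574, 16 exons). It had an authors' mean normalised count of 6375 and, at 853 per kb, the lowest level per kb of the 10, above 83.2% of genes. *XBP1* was 10.4-fold higher than *ATF6* per kb, with a range of 5.61 to 14.2 over the 4 lengths. The paralog *ATF6B*, picked in the same way, was lower than *ATF6* under each length, by a factor of 1.15 to 4.54.

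**Figure D3:**
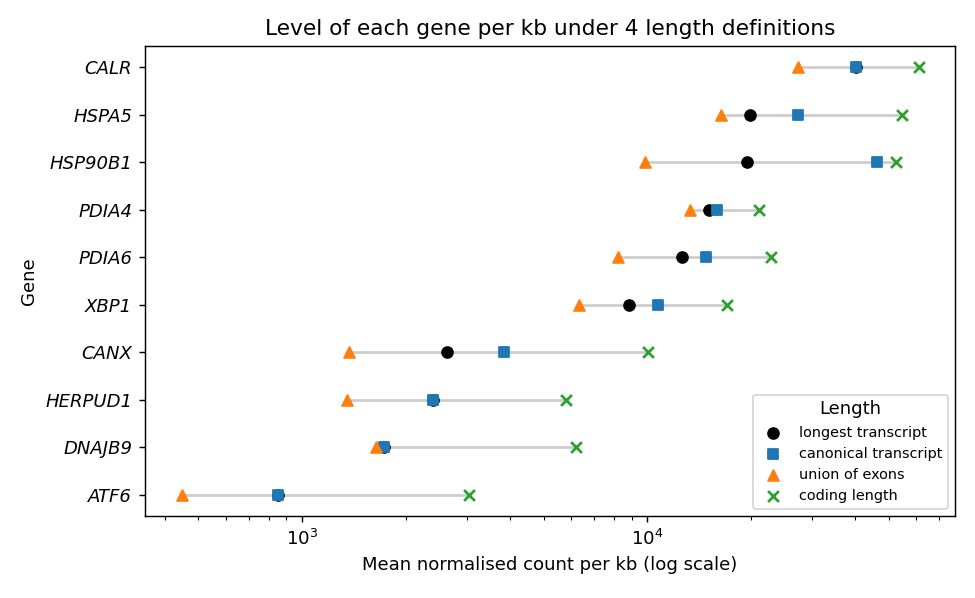
Mean normalised count per kb (x axis, log scale) of each of the 10 genes (y axis) with 4 definitions of length, namely the longest transcript, the canonical transcript, the union of all exons and the coding length, joined by a grey line. Where the longest transcript is the canonical one, the square covers the circle. *CALR*, *HSPA5* and *HSP90B1* overlap in range, and *ATF6* is lowest under each definition.

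Of the 45 pairs that the 10 genes form, 39 kept their order per kb under all 4 definitions of length. The 6 pairs that did not were *CALR* with *HSP90B1*, *HSPA5* with *HSP90B1*, *HSP90B1* with *PDIA4*, *PDIA4* with *PDIA6*, *CANX* with *DNAJB9*, and *HERPUD1* with *DNAJB9*. *HSP90B1* ranged widely, from 9810 per kb with the union of its exons to 46165 per kb with its canonical transcript and 52593 per kb of coding length. Its longest transcript has 6609 bases and its canonical one 2782. With the canonical transcript, it was the highest of the 10 and *CALR* the next.

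Reads shared with other annotated genes could lower some of these levels. The strand setting of the counting is not given in the sources used here. Reads from genes on opposite strands may then not be told apart. *PDIA6* shares 1033 exon bases, or 25.2% of its exons, with *ATP6V1C2* on the opposite strand, whose authors' mean normalised count was 87.6. *HSP90B1* shares 805 exon bases with *UQCC6*, and *CALR* shares 270 with an antisense transcript. Pseudogenes of *HSPA5*, *HSP90B1* and *XBP1* were listed at 7.95 to 53.4 mean normalised counts, at most 0.0636% of the level of their parent gene. These counts do not measure reads that match both a gene and its pseudogene. *PDIA4*, *DNAJB9* and *XBP1* overlap no other annotated gene, nor does *HSPA5*. The part of shared reads in the levels was not tested.

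The 10 genes were set beside 49 other genes of the same system in 5 lists, all of which were in the table. With the longest transcript, 48 of these 49 lay above the median gene and 15 were in the top 5%. Their median was 1312 per kb against 10701 per kb for the 10 genes, and these medians were not compared under the other lengths. The cofactors of BiP and J-domain proteins ranged from 780 per kb for *DNAJB11*, which encodes ERdj3, to 4983 per kb for *MANF*. *MANF* was highest under each of the 4 lengths, whereas *DNAJC10* was lowest with the canonical transcript and *SIL1* with the coding length. With the longest transcript, all 10 of them lay below *HSPA5*. *HSPA5* was 10.1-fold to 34.6-fold higher than *DNAJB11* over the 4 lengths.

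Among 11 genes of disulfide formation and isomerisation, *PDIA3*, which encodes the isomerase that works with calnexin and calreticulin, was highest at 16865 per kb. It stood at 0.398 to 1.93 times the level of *PDIA4* over the 4 lengths, so their order is also open to the length chosen. Within the list, *P4HB* was above it with the canonical transcript, at 23429 against 16939 per kb. *TXNDC5* was lowest at 192 per kb, and 60.9% of its exon bases are shared with the readthrough gene *BLOC1S5-TXNDC5* on the same strand. The part of this overlap in its low level was not tested. With the union of exons, *ERO1B* was lower than *TXNDC5*. Of the 5 genes that trim glycans or add glucose back, *PRKCSH*, a subunit of glucosidase II, was highest at 22184 per kb, but with the union of exons *GANAB*, the catalytic subunit, was above it at 12639 against 9393 per kb. *CALR* was above *PRKCSH* under each length, with *PRKCSH* at 0.345 to 0.577 of its level. *UGGT2*, a folding sensor that adds glucose, was lowest at 1069 per kb.

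The 13 genes of ER-associated degradation had a median of 937 per kb, below *HERPUD1*. They ran from *DERL3* at 2.10 per kb to *VCP*, the ATPase that extracts substrates from the membrane, at 5567 per kb. With the canonical transcript, *OS9* was above *VCP*, at 9065 against 8966 per kb. *DERL3* was the only one of the 49 below the median gene, and 77.0% of its exon bases are shared with *SMARCB1* on the opposite strand. The authors' mean normalised count of *SMARCB1* was 2377, and the part of this overlap in the level of *DERL3* was not tested. Among the 10 sensors, proteases and transcription factors, *ERN1* was lowest at 117 per kb and *ATF4* highest at 6970 per kb. *XBP1* was 47.1-fold to 115-fold higher than *ERN1*, whose product splices it, and 1.08-fold to 1.27-fold higher than *ATF4*.

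**Figure D4:**
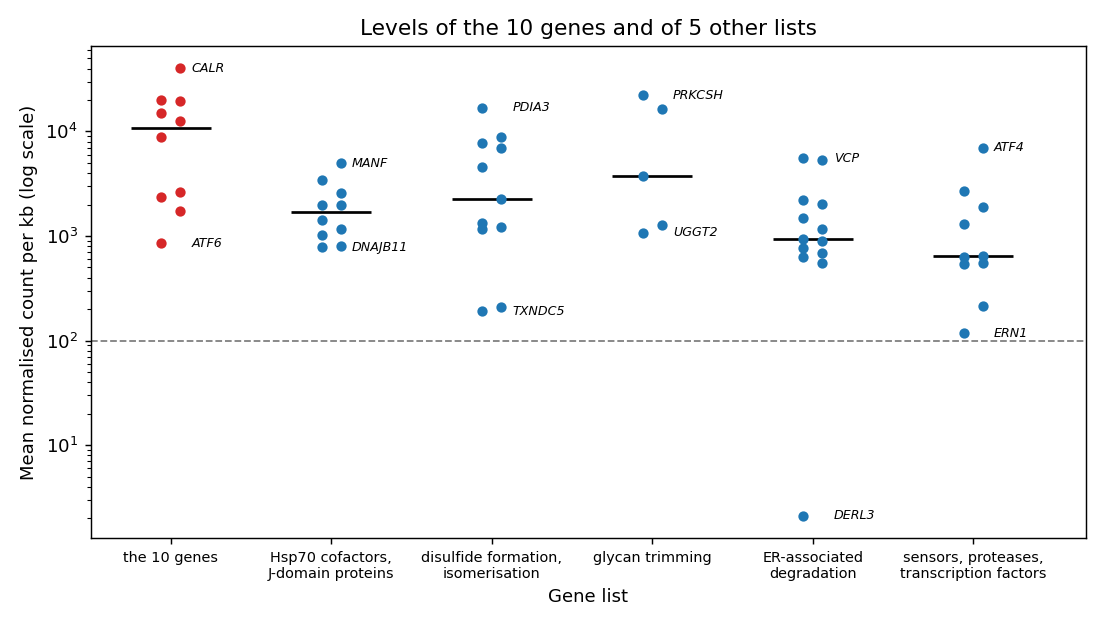
Mean normalised count per kb of longest transcript (y axis, log scale) of the 10 genes (red) and of the genes in 5 other lists (blue), with 1 point per gene, a black bar at the median of each list and a dashed line at the median of all genes. The highest and lowest gene of each list is named. Only *DERL3* lies below the dashed line.

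The exact ERSE was also searched in these other lists. Of their 44 genes with a promoter, 2 had it, *ERO1B* and *CRELD2*, and 2 had ERSE-II, *HYOU1* and *SDF2L1*. The core TGACGTGG was present in 5 of the 44, *HYOU1*, *DNAJC10*, *TXNDC5*, *UBE2J1* and *VCP*, or 11.4%. These genes are named for holding the element. Among the 13198 genes of the table with a promoter, 18 had the exact ERSE, with a median of 833 per kb against 251 per kb for those without it. The 10 genes include 6 of these 18, so this median is not separate from their own levels.

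The labelled cell type was checked with markers. The pancreatic progenitor genes ranged from *GP2* at 40743 per kb, *SOX9* at 5259, *PDX1* at 4969, *FOXA2* at 2146, *ONECUT1* at 1530 and *GATA6* at 1437 to *GATA4* at 989, *NKX6-1* at 875 and *PTF1A* at 8.10. Of these, *PTF1A* was the one below the median gene. Genes taken as markers of other cells were listed as well. Of 5 hepatocyte genes, 4 were in the top 5%, namely *TTR* at 59903 per kb, *AFP* at 10996, *APOA2* at 4314 and *SERPINA1* at 3904, while *ALB* stood at 280. Pancreatic endocrine cells are also known to express *TTR*. Of 6 endocrine genes, 3 lay above the median gene, namely *CHGA* at 2172 per kb, *SST* at 958 and *NEUROG3* at 289, and 3 below it, namely *NEUROD1* at 19.8, *GCG* at 14.5 and *INS*, whose mean normalised count was 8.32. Mesenchymal genes ranged from 20.0 to 692 per kb for *COL1A1*, and the 3 listed acinar genes from 53.2 to 1686 for *PRSS1*. Of the pluripotency genes, *LIN28B* was highest at 471 per kb, and *POU5F1* and *NANOG* were not listed. The endothelial and blood genes listed reached at most 11.0 per kb, for *PECAM1*. With bulk RNA, the level of a gene in 1 cell type cannot be told apart from the share of cells of that type. Nor do these values show which other cell types were present. The part of any such cells in the levels of the 10 genes was not tested.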

How the data were processed

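Polyadenylated RNA of 18 samples was sequenced. Per the labels and the paper's methods, the authors aligned reads with STAR 2.7.2d to hg38 with an earlier GENCODE release, took gene counts from the same tool and normalised them with DESeq2 1.34.0. The value used is a signal, the authors' mean of normalised counts over all samples, deposited as 1 number per gene and equal at each time to within a relative gap of 4.89e-07. The other columns of the deposited table hold the authors' own comparisons of LN411 with FN, namely fold changes, standard errors, statistics and p-values. They were not used here, and no value per sample was analysed here. So no test was run between groups, and no replicate error is given.

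Genes were matched by Ensembl identifier to GENCODE v44 on GRCh38 (99.6% matched), whose longest transcript gave the length. Positions are from the same annotation. A gene's place is the percentage of matched genes with a lower level per kb. Alternatives were the union of exons, no length correction, only genes listed at all 3 times, only protein-coding genes, a mean of at least 10, and other top shares. The canonical transcript and the GENCODE coding length were added after seeing the data. Promoter sequences were those of RefSeq on GRCh38.p14, matched by symbol. The rank and motif searches were tested on simulated data. Python 3.11.15, numpy 2.4.6, pandas 2.3.3 and matplotlib 3.10.9 were used.

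The 10 genes and the lists were chosen with earlier results of these data known. Named beyond the 10 are the highest and lowest gene per kb of each of the 5 lists, the highest of each marker list and the progenitor markers, of which 1 is not reported here. The other hepatocyte and endocrine markers, and genes that took the highest or lowest place under another length or hold an element, were named after their values were seen. Protein sequences were not analysed here.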

Additional observations from a re-analysis of the deposited data

How the results depend on the processing

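The number of the 10 genes in the top 5% was 7. It was 6 with the union of exons, with only genes listed at all 3 times, with only protein-coding genes, with a mean of at least 10 and with the coding length, and 7 without length correction and with the canonical transcript. The median level of the 10 genes, 10701 per kb, became 7285 with the union of exons, 12754 with the canonical transcript and 19059 with the coding length, and 26449 as a count without length correction. These shifts follow from the lengths themselves. Relative to the median gene ranked in the same way, the 10 genes stood 107-fold higher, and 27.5-fold to 110-fold over these alternatives, with the lowest value among genes with a coding length only. *CANX* had between 93.0% and 98.1% of genes below it, *HERPUD1* between 90.2% and 94.6%, *DNAJB9* between 86.6% and 94.3% and *ATF6* between 76.5% and 91.7%. *XBP1* had between 97.0% and 98.9% below it, and the other 5 genes had at least 97.7% below them under each alternative. With 1 mismatch allowed in the ERSE, 7 of the 10 genes had the element, the seventh being *HERPUD1*, against 1.89% of all genes. The RefSeq protein length planned as an alternative was not run. No paired analysis was possible because the table holds no value per sample, and leaving out single samples was not run for the same reason. Library depth is unknown, so no counting error is given.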
